A study of Homo sapiens with 12 samples.

Results

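The comparison set MDA-MB-231 cells that stably over-express a transfer RNA for arginine, tRNA-Arg, against a mock line, both collected before any treatment with α-amanitin. Its members are the samples that the labels place at 0 h in the tRNA-Arg and mock groups, 4 of the 12 in the series: 2 tRNA-Arg and 2 mock arrays. MDA-MB-231 cells derive from a human triple-negative breast cancer and look mesenchymal. The study made stable lines over-expressing the tRNA-Arg locus (anticodon CCG) or a tRNA-Glu locus beside the mock line, and collected each at 0 h and after 9 h of α-amanitin at 10 µg/mL, asking whether the tRNAs alter how long mRNAs last. Biotin-labelled total RNA was read on Illumina expression BeadChips, which carry a 1-colour probe signal per transcript. All groups share the parental line and the growth medium. The labels do not say whether the mock line carried an empty vector, whether a line was 1 clone or a pool, or whether replicates were separate cultures, and the p-values cover only the spread among the arrays, which may be technical. The over-expressed tRNA is not measured by a named probe, so over-expression was not checked here.

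A tRNA carries its amino acid to the ribosome and reads codons matching its anticodon, and the tRNA with anticodon CCG reads the arginine codon CGG. The supply of single tRNAs has been studied in metastatic breast cancer cells for its effect on the translation and amount of mRNAs rich in the matching codons. At 0 h the arrays report the amount of each mRNA present and not its rate of decay. Several of the genes described below are cancer-testis genes, which are normally active in male germ cells, silent in most other tissues with methylated promoters, and often switched on in tumours.

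The 4 arrays had mean raw intensities of 533.39 to 594.93 and correlated with each other and with the tRNA-Glu arrays at 0 h at 0.9867 to 0.9966 on the log2 scale. The probe for VIM (vimentin), a mesenchymal marker of this cell line, read 14.74 and 14.84 in mock and 14.77 and 14.78 in tRNA-Arg on the log2 scale, and CAV1, CD44, LGALS1, ANXA1, AXL and MSN were also bright in both lines. The probe for FN1 (fibronectin), also a mesenchymal marker, was not well above background, at 5.38 and 5.44 in mock and 5.44 and 5.91 in tRNA-Arg, with 1 tRNA-Arg array above the floor. No probe paired with the luminal or epithelial markers ESR1, PGR, FOXA1 and CDH1 was bright enough to be tested, nor was one for the markers of other cell types CD3E, VWF and DES, and PTPRC was not paired. PECAM1, ACTA2 and ALB, markers of endothelium, smooth muscle and liver, were above the floor on the 4 arrays, at 6.37 to 6.67, 7.36 to 7.58 and 6.01 to 6.15, and their source was not tested. Other luminal or epithelial markers set down as low in this cell line, KRT8, KRT19, ERBB2 and EPCAM, were far above the floor defined below. They read 11.08 to 11.46, 10.86 to 11.18, 9.16 to 9.36 and 8.77 to 8.98 on the 4 arrays. KRT18, at 5.54 to 5.74, was just above the floor, and GATA3, at 5.43 to 5.74, was above it on 1 mock and 2 tRNA-Arg arrays. Of the 18 markers tested, 0 was called different between the lines (differences of -0.20 to 0.27). Precision is limited by having 2 arrays a group. The tRNA-Glu array of replicate 1 at 0 h stood apart, with a raw 75th percentile of 224.55 beside 172.4 to 194.7 for the other arrays at 0 h, and the comparisons with tRNA-Glu are given with and without it. Probe names and probe identifiers are given together, since gene names were joined to probes from the authors' deposited table by value.

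Of 25456 probes tested, 161 (0.632%) differed between the tRNA-Arg and mock lines at an adjusted p below 0.05 in limma (Benjamini-Hochberg), 104 higher in tRNA-Arg (0.409%) and 57 lower (0.224%). The 2 largest differences were a gain and a loss of a MAGE family gene: MAGEB2 was 9.58-fold higher and MAGEC2 8.6-fold lower in tRNA-Arg. Genes for a testis form of cytochrome oxidase subunit (COX7B2), a sorting receptor (SORCS2), the growth factor receptor restraint LRIG1, the class II antigen chain HLA-DPA1 and the tryptophan-degrading enzyme KYNU followed among the increases. The transcription regulator AFF3, the tetraspanin TSPAN8, the cysteine protease inhibitor CST1, the collagenase MMP1 and the chemokine IL8 were among the decreases. All log2 differences are tRNA-Arg minus mock, of normalized intensity, and the floor is an array's median raw intensity, under which a probe was taken as not well above background. Arrays of pooled cells cannot tell a change in every cell from a change in the share of cells that express a gene.

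The differences were few and mostly modest. The median size of a called difference was 0.767 on the log2 scale, the smallest was 0.509, and the 95% interval of a difference had a median half-width of 0.30 over all tested probes. Only 32 called probes differed by over 1, 22 higher and 10 lower, and 5 by over 2. At an unadjusted p below 0.05, 2468 probes (9.7%) differed. The count rested on each of the 4 arrays: leaving out mock replicate 1 or 2 gave 48 or 71 called probes, and leaving out tRNA-Arg replicate 1 or 2 gave 26 or 46. Of 52 called probes named by rule, 20 kept the call whichever of the 4 was left out, and 32 lost it without at least 1 of them, all 32 without tRNA-Arg replicate 1. These 32 include every gene described below as called by its list other than MAGEB2, MAGEC2, HLA-DPA1 and TNFSF10. Of the 161 probes, 16 were called under 15 alternatives, the 4 arrays left out in turn among them and some testing fewer probes, among them probes for MAGEB2, MAGEC2, COX7B2, LRIG1, HLA-DPA1, KYNU, SCG2, KIAA1199, TNFSF10, ABCA1, TSPAN8 and TMEM98. The tRNA-Arg and mock arrays did not overlap at 10983 of all tested probes (43.1%), and with 2 arrays a group a call all but requires it, so the separation of the called probes adds nothing to their call. The called probes were paired with 90 distinct genes that were higher and 50 that were lower, and 11 probes had no paired gene. Just inside the threshold lay PTPRR (ILMN_1679051, adjusted p = 0.0492 in limma) and LOC647718 (ILMN_1665092, 0.0482), and just outside it FLJ39632 (ILMN_1769704, 0.0501) and KLHDC8B (ILMN_1695246, 0.0506).

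**Figure D1:**
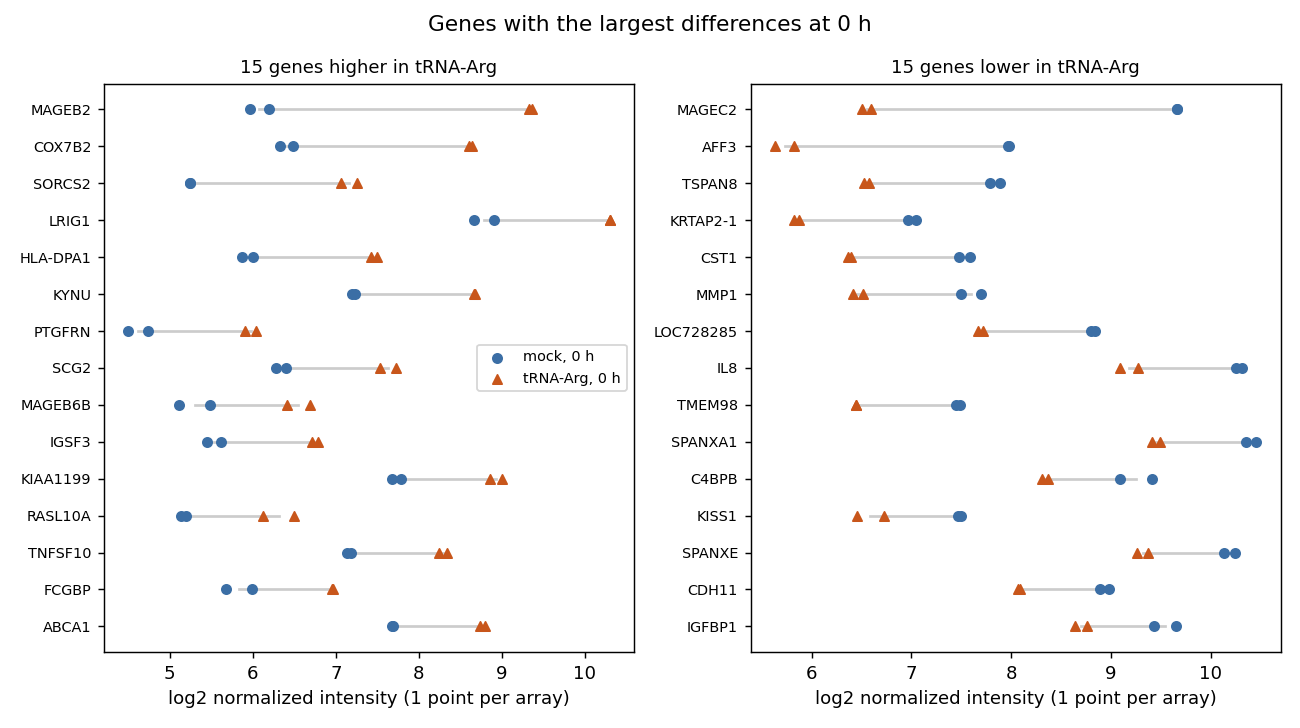
Log2 normalized intensity (x axis) of the 15 named genes with the largest increases (left) and decreases (right) in tRNA-Arg at 0 h, 1 circle per mock array and 1 triangle per tRNA-Arg array, with a grey line between the group means. In each row the 2 circles and the 2 triangles do not overlap, as the rule for naming required. MAGEB2 and MAGEC2 have the longest lines, at 3.26 and -3.10.

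MAGEB2 and MAGEC2 encode related cancer-testis proteins of the X chromosome that partner E3 ubiquitin ligases. MAGEB2 (ILMN_1688335) read 6.19 and 5.97 in mock and 9.36 and 9.32 in tRNA-Arg, a difference of 3.26 (SE 0.13, limma adjusted p = 2.26e-08). MAGEC2 (ILMN_2088876) read 9.66 on both mock arrays and 6.60 and 6.51 in tRNA-Arg, a difference of -3.10 (SE 0.12, limma adjusted p = 2.26e-08). The gene that was bright in the mock line was therefore near the dim end in tRNA-Arg, and the one that was dim in mock was bright. A second MAGEB2 probe (ILMN_2078430) was not well above background in mock, at 5.39 and 5.44, and read 7.81 and 7.73 in tRNA-Arg, at least 4.91-fold higher. A second MAGEC2 probe (ILMN_1757152) read 6.88 and 6.61 in mock and 5.67 on both tRNA-Arg arrays, a smaller difference of -1.08. MAGEB6B (ILMN_1780911), a related X-linked gene, read 5.49 and 5.11 in mock, with 1 of the 2 arrays above the floor, and 6.69 and 6.41 in tRNA-Arg, a difference of 1.25 (SE 0.15, limma adjusted p = 0.00132). These members of 1 family therefore differed in opposite directions between the same 2 lines.

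Other MAGE genes were not called. Of 18 MAGE probes tested, for 14 genes, 3 were called higher and 2 lower, and the median difference over the 18 was 0.05. MAGEA12 (ILMN_1718107), MAGEA2 (ILMN_1684607) and MAGEA6 (ILMN_2372681) differed by -0.02, 0.07 and 0.03. In the wider list of cancer-testis, melanoma and imprinted genes, 3 of 13 tested genes were called, MAGEB2 higher and MAGEC2 and SSX1 lower, beside 0.714% of all genes (0.464% higher and 0.25% lower), and the list's median was 0.0655 beside -0.00143 for all genes. SSX1 (ILMN_2247572), an X-linked transcriptional repressor of the testis, read 6.13 and 5.82 in mock and 5.11 and 5.19 in tRNA-Arg, where neither array was well above background, at least 1.42-fold lower (limma adjusted p = 0.0197). A second, dim SSX1 probe (ILMN_1690680) differed by -0.11. Of tested genes with a chromosome in RefSeq, 11 of 490 on the X chromosome (2.24%) and 112 elsewhere (0.875%) were called by their brightest tested probe. The 11 include MAGEB2, MAGEB6B, MAGEC2, SSX1 and several of the SPANX genes described next, so the X share is not a result apart from these genes.

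The SPANX genes, X-linked genes for small proteins of the sperm nucleus, were lower as a group. Of 11 tested SPANX probes 10 were called lower, beside 0.224% of all probes, and all 11 differences lay between -0.96 and -0.54 at 0 h. A SPANXA1 probe (ILMN_2233319) read 11.73 and 11.76 in mock and 10.78 and 10.92 in tRNA-Arg, a difference of -0.90. The other SPANXA1 probe (ILMN_2233314) read 10.46 and 10.36 in mock and 9.41 and 9.49 in tRNA-Arg, a difference of -0.96 (SE 0.16, limma adjusted p = 0.0142). SPANXE (ILMN_1713125) read 10.25 and 10.13 in mock and 9.26 and 9.37 in tRNA-Arg, a difference of -0.87 (SE 0.14, limma adjusted p = 0.0100). The calls of ILMN_2233314 and ILMN_1713125 were lost when any 1 of the 4 arrays was left out, at differences of -1.01 to -0.81. For SPANXA2 (ILMN_1653415), SPANXB1 (ILMN_2211030), SPANXC (ILMN_2198300) and SPANXD (ILMN_3242729) the differences were -0.71, -0.70, -0.72 and -0.75. SPANX copies are nearly identical, so one transcript may bind several of these probes, and the 10 calls are not 10 independent genes. The SPANX, MAGE and other family groupings were chosen after their values were seen.

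The promoters of the 2 MAGE genes with the largest differences, and of a pair of SPANX genes, are shown because cancer-testis promoters are known for methylation at CG pairs and because the SPANX pair shows how alike these copies are. Each is 250 bases before to 50 after the gene start in RefSeq (GRCh38.p14), 5′ to 3′ on the gene's strand, with every CG in capitals. Methylation was not measured.
MAGEB2, chrX:30215313-30215612, plus strand: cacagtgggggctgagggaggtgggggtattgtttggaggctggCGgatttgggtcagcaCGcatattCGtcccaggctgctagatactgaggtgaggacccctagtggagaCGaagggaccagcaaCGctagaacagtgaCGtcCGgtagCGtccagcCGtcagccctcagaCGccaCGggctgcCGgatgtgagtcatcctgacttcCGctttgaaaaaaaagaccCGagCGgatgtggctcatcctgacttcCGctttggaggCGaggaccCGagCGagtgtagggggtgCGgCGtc
MAGEC2, chrX:142205241-142205540, minus strand: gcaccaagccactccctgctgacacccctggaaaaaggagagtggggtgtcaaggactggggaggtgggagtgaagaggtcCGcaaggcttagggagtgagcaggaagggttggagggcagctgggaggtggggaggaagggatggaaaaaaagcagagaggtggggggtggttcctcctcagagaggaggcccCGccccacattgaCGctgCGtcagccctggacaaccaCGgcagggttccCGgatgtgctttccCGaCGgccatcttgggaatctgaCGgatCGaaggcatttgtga
SPANXA1, chrX:141584689-141584988, minus strand: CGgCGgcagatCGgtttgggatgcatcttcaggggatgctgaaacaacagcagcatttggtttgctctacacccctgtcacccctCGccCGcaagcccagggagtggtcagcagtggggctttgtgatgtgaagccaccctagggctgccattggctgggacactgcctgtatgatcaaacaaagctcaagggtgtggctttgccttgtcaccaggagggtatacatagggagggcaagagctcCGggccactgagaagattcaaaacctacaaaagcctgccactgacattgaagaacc
SPANXC, chrX:141242468-141242767, minus strand: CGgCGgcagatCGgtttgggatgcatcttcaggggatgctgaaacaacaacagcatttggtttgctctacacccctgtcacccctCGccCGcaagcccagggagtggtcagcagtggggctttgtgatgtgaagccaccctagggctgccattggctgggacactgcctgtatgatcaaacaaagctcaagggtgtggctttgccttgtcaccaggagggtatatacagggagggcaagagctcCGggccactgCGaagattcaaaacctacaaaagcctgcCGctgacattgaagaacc
The motif CG, which reads the same on both strands, occurs 21 times in the MAGEB2 window and 10 times in that of MAGEC2, and 39.5% and 56.4% of the 35116 RefSeq promoters of that length hold at least as many. The SPANXA1 window holds 6 and the SPANXC window 8, counts reached by 66.3% and 60.7% of promoters. The SPANXA1 and SPANXC windows differ at 5 of 300 bases (98.3% identical).

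COX7B2, SORCS2, KYNU and ABCA1, genes of metabolism and membrane traffic grouped after their values were seen, were higher. COX7B2 (ILMN_1674658), a testis-enriched form of a cytochrome c oxidase subunit, read 6.48 and 6.33 in mock and 8.6 and 8.64 in tRNA-Arg, a difference of 2.21 (SE 0.13, limma adjusted p = 1.61e-06). SORCS2 (ILMN_1729225), a sorting receptor of the VPS10 family, was not well above background in mock, at 5.25 and 5.24, and read 7.06 and 7.26 in tRNA-Arg, at least 3.21-fold higher (limma adjusted p = 4.56e-06). KYNU (ILMN_1746517), the kynureninase of tryptophan breakdown, read 7.23 and 7.19 in mock and 8.66 and 8.68 in tRNA-Arg, a difference of 1.46 (SE 0.12, limma adjusted p = 3.51e-05). In each of these the 2 arrays of a line lay far closer to each other than to the arrays of the other line. Picking the largest called differences all but requires this, so it adds nothing to the calls. A second KYNU probe (ILMN_1737514) gave 0.91 (limma adjusted p = 0.00906). ABCA1 (ILMN_1766054), which exports cholesterol from cells, read 7.68 and 7.69 in mock and 8.79 and 8.73 in tRNA-Arg, a difference of 1.07 (SE 0.12). None of the oxidative phosphorylation genes in a list of 59 was called, and COX7B2 is not in that list.

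Among cell-surface proteins, LRIG1, which restrains signalling by ErbB receptors, had the firmest increase with 2 probes. LRIG1 (ILMN_2128795) read 8.90 and 8.66 in mock and 10.3 on both tRNA-Arg arrays, a difference of 1.52 (SE 0.14, limma adjusted p = 0.000152). A second LRIG1 probe (ILMN_1707342) gave 1.35, while its relatives LRIG2 (ILMN_1654099) and LRIG3 (ILMN_2075757) differed by 0.03 and -0.04. PTGFRN (ILMN_2077905), an immunoglobulin-type partner of tetraspanins, was not well above background in mock, at 4.74 and 4.50, and read 5.91 and 6.04 in tRNA-Arg, at least 1.42-fold higher. The 2 lines did not overlap at either of these genes, which a call all but requires. IGSF3 (ILMN_1704353), another membrane protein of that family, read 5.62 and 5.45 in mock, with 1 of the 2 arrays above the floor, and 6.71 and 6.79 in tRNA-Arg, a difference of 1.22. A dimmer second IGSF3 probe (ILMN_2396546) differed by 0.41 and was not called. PDGFRB (ILMN_1815057), a platelet-derived growth factor receptor, read 6.42 and 6.47 in mock and 7.21 and 7.44 in tRNA-Arg, a difference of 0.88 (SE 0.13, limma adjusted p = 0.00839).

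Class II antigen presentation genes were raised in part. HLA-DPA1 (ILMN_1772218), the alpha chain of a class II molecule, read 6.0 and 5.87 in mock and 7.42 and 7.49 in tRNA-Arg, a difference of 1.52 (SE 0.11, limma adjusted p = 1.64e-05). HLA-DRA (ILMN_2157441) read 9.52 and 9.44 in mock and 10.17 and 10.22 in tRNA-Arg, a difference of 0.72 (SE 0.11, limma adjusted p = 0.00839). HLA-DRB4 (ILMN_1752592) read 7.13 and 7.12 in mock and 7.76 and 7.81 in tRNA-Arg, a difference of 0.66 (limma adjusted p = 0.011). These were the 3 called of 12 class II probes tested, beside 0.632% of all probes (0.409% higher), and 8 of the 12 differences were above 0. A second HLA-DRA probe (ILMN_1689655) differed by 0.38 and did not pass, HLA-DMA (ILMN_1695311) differed by -0.23, and HLA-DRB3 (ILMN_1717261) by -0.00. Class II genes are alike in sequence and vary between people, so cross-hybridisation between their probes cannot be told apart from expression. In the list of interferon response and antigen presentation genes, 2 of 47 were called, beside 0.714% of all genes, both of class II, with a list median of 0.0858.

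Secreted signalling proteins moved both ways. TNFSF10 (ILMN_1801307), the death ligand TRAIL, read 7.18 and 7.13 in mock and 8.34 and 8.24 in tRNA-Arg, a difference of 1.13 (SE 0.12, limma adjusted p = 0.000422). TGFBI (ILMN_1663866), a matrix protein induced by transforming growth factor beta, read 12.76 and 12.78 in mock and 13.59 and 13.61 in tRNA-Arg, a difference of 0.83 (SE 0.12). IL1B (ILMN_1775501), an inflammatory cytokine, was not well above background in mock and read 6.05 and 5.97 in tRNA-Arg, at least 1.45-fold higher. IL8 (ILMN_2184373), which draws neutrophils, went the other way, reading 10.32 and 10.26 in mock and 9.09 and 9.27 in tRNA-Arg, a difference of -1.11 (SE 0.22, limma adjusted p = 0.0444). A second IL8 probe (ILMN_1666733) differed by -0.64 and did not pass, at an adjusted p of 0.0844 in limma. These 4 were the calls among 28 chemokine, cytokine and related genes of the list, beside 0.714% of all genes, and the list's median was -0.0573. SCG2 (ILMN_1703178), a secretogranin of secretory granules, read 6.28 and 6.40 in mock and 7.73 and 7.53 in tRNA-Arg, a difference of 1.29.

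IGFBP1 and IGFBP3, which bind insulin-like growth factors, and KISS1 were lower, while IGFBP4 (ILMN_1665865), IGFBP6 (ILMN_1669362) and IGFBP7 (ILMN_2062468) differed by -0.03, 0.06 and 0.13 and were not called. IGFBP1 (ILMN_2387385) read 9.43 and 9.65 in mock and 8.64 and 8.76 in tRNA-Arg, a difference of -0.84 (SE 0.12, limma adjusted p = 0.00705). IGFBP3 (ILMN_1746085) read 9.37 and 9.49 in mock and 8.88 and 8.62 in tRNA-Arg, a difference of -0.68 (limma adjusted p = 0.0242). KISS1 (ILMN_1669404), the kisspeptin precursor, known as a metastasis suppressor, read 7.47 and 7.50 in mock and 6.46 and 6.73 in tRNA-Arg, a difference of -0.89 (SE 0.14, limma adjusted p = 0.0100). The lower tRNA-Arg arrays did not reach the mock arrays in any of these, which a call all but requires. C4BPB (ILMN_1694588), a chain of a complement inhibitor, read 9.09 and 9.41 in mock and 8.37 and 8.31 in tRNA-Arg, a difference of -0.91. With PDGFRB, the IGFBP genes were the 3 called of 37 growth factor, receptor and feedback genes (beside 0.714% of all genes), 1 higher and 2 lower.

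Matrix and protease genes also split. MMP1 (ILMN_1726448), the interstitial collagenase, read 7.50 and 7.70 in mock and 6.41 and 6.52 in tRNA-Arg, a difference of -1.13 (SE 0.14, limma adjusted p = 0.00258). MMP9 (ILMN_1796316), a gelatinase, was not well above background in mock, at 4.93 and 4.88, and read 5.94 and 5.90 in tRNA-Arg, at least 1.36-fold higher. COL6A2 (ILMN_1783909), a chain of collagen VI, read 6.67 and 7.0 in mock and 7.69 and 7.63 in tRNA-Arg, a difference of 0.82, while its 2 other probes differed by 0.52 and -0.03. These were the 3 called of 49 matrix and protease genes, beside 0.714% of all genes. Of 17 probes for matrix metalloproteinases 1 was called in each direction, beside 0.409% of all probes higher and 0.224% lower. KIAA1199 (ILMN_1813704), known as CEMIP and needed for hyaluronan breakdown, read 7.79 and 7.68 in mock and 8.86 and 9.00 in tRNA-Arg, a difference of 1.19 (SE 0.15, limma adjusted p = 0.00239). CST1 (ILMN_1753449), the salivary-type cystatin SN, read 7.48 and 7.59 in mock and 6.39 and 6.36 in tRNA-Arg, a difference of -1.16 (SE 0.16, limma adjusted p = 0.00351). Its close relative CST4 (ILMN_2185911) was also lower, by -0.74, though its other probe (ILMN_1752452) differed by -0.22 and was not called, whereas the general cystatin CST3 (ILMN_1800354) differed by 0.15 without passing the test.

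Both adhesion genes called of 20 in the list were lower, beside 0.25% of all genes called lower. CDH11 (ILMN_1672611), a cadherin of mesenchymal cells, read 8.89 and 8.98 in mock and 8.07 and 8.09 in tRNA-Arg, a difference of -0.85 (SE 0.12, limma adjusted p = 0.00659). ITGB2 (ILMN_2175912), the beta chain of leukocyte integrins, differed by -0.53 (limma adjusted p = 0.0459). In the list of mesenchymal and epithelial state, 1 of 28 was higher and 1 lower, beside 0.464% and 0.25% of all genes. SNAI2 (ILMN_2082585), the transcriptional repressor Slug, read 9.56 and 9.49 in mock and 10.24 and 10.23 in tRNA-Arg, a difference of 0.70 (limma adjusted p = 0.0274). CLDN1 (ILMN_1724686), a tight junction protein, read 6.33 and 6.56 in mock and 5.85 and 5.77 in tRNA-Arg, a difference of -0.64 (limma adjusted p = 0.0421). The list's median was 0.0144. TSPAN8 (ILMN_1683263), a tetraspanin, read 7.89 and 7.79 in mock and 6.58 and 6.53 in tRNA-Arg, a difference of -1.29 (SE 0.12, limma adjusted p = 0.000152).

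AFF3 (ILMN_1775235), a nuclear protein of the family that works with transcription elongation complexes, had the second largest loss. It read 7.98 and 7.97 in mock and 5.63 and 5.82 in tRNA-Arg, a difference of -2.25 (SE 0.13, limma adjusted p = 1.05e-06). TMEM98 (ILMN_1779182), a membrane protein, read 7.45 and 7.49 in mock and 6.45 on both tRNA-Arg arrays, a difference of -1.02, while a second, dim probe (ILMN_1652456) differed by 0.01. KRTAP2-1 (ILMN_1658448), a keratin-associated protein of hair, read 6.97 and 7.05 in mock and 5.82 and 5.87 in tRNA-Arg, a difference of -1.16. LOC728285 (ILMN_1660067), which has only a placeholder name, read 8.84 and 8.80 in mock and 7.72 and 7.67 in tRNA-Arg, a difference of -1.13. RASL10A (ILMN_1747673), a small GTPase, was at least 1.78-fold higher. FCGBP (ILMN_2302757), a secreted protein that binds IgG, read 5.99 and 5.68 in mock and 6.95 and 6.97 in tRNA-Arg, a difference of 1.13. Of called probes with no paired gene, ILMN_1712684 and ILMN_2309156 were highest, by 1.10 and 1.05, and ILMN_1668546 and ILMN_2412336 lowest, by -0.90 and -0.64.

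The glycolysis and hypoxia genes that were called were all higher. Of 29 tested genes in that list, 4 were called higher and 0 lower (13.8% called, beside 0.714% of all genes). Of the 29 differences, 24 were above 0 (82.8%, beside 49.7% of all genes), and the list's median was 0.17 beside -0.00143 for all genes. NDRG1 (ILMN_1809931), induced in low oxygen, read 9.93 and 10.03 in mock and 10.70 and 10.71 in tRNA-Arg, a difference of 0.73 (SE 0.12, limma adjusted p = 0.0163). ALDOC (ILMN_1755974), an aldolase of glycolysis, read 6.96 and 7.0 in mock and 7.72 and 7.60 in tRNA-Arg, a difference of 0.69 (limma adjusted p = 0.0117). PFKFB4 (ILMN_1653292), which sets the level of a glycolytic activator, read 9.25 and 9.28 in mock and 9.91 and 9.88 in tRNA-Arg, a difference of 0.63 (limma adjusted p = 0.0124). CA9 (ILMN_1725139), a carbonic anhydrase known as a hypoxia marker, was not well above background in mock and was at least 1.24-fold higher. The 2 lines did not overlap at these 4 genes, which a call all but requires. The list's glycolytic enzymes ENO1 (ILMN_1710756) and GAPDH (ILMN_2038778) differed by -0.16 and 0.002, and the glucose transporter SLC2A1 (ILMN_1659027) by 0.008. Leaving out any 1 of the 4 arrays took the number called from 4 to 0 or, without mock replicate 2, to 1, while 21 to 24 of the 29 differences stayed above 0 and the median lay between 0.159 and 0.201. After 9 h of α-amanitin 1 of the 29 was called higher and 19 differences were above 0 (65.5%, beside 51.7% of all genes). The list's median at 9 h was 0.0876 beside 0.00879 for all genes. EPAS1 (ILMN_1704753), the hypoxia-inducible factor 2 alpha subunit, was no member of the list and is named after its values were seen. It read 8.68 and 8.61 in mock and 9.43 and 9.44 in tRNA-Arg, a difference of 0.78 (SE 0.11, limma adjusted p = 0.00428).

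Sterol and fatty acid synthesis had 1 of 33 genes called, beside 0.714% of all genes, and its median was 0.106. The gene was SCD (ILMN_1689329), the stearoyl-CoA desaturase, which read 10.26 and 10.04 in mock and 10.95 and 11.17 in tRNA-Arg, a difference of 0.91 (SE 0.14, limma adjusted p = 0.0103). DDIT4 (ILMN_1661599), a stress-induced inhibitor of mTORC1, was the 1 gene called of 30 in amino acid response and transport, beside 0.714% of all genes. It read 9.76 and 10.05 in mock and 10.87 and 10.66 in tRNA-Arg, a difference of 0.86 (limma adjusted p = 0.0252). DDIT3 (ILMN_1676984), a stress-response transcription factor of the same list, differed by -0.53 and PHGDH (ILMN_1704537), of serine synthesis, by 0.60, and neither passed. TEAD2 (ILMN_1682781), a DNA-binding partner of YAP, read 9.98 and 10.09 in mock and 10.65 and 10.69 in tRNA-Arg, a difference of 0.63 (limma adjusted p = 0.0219). It was the 1 gene called of 19 in the list of YAP and TEAD targets, beside 0.714% of all genes, and the list's median was 0.00677. ANKRD1 (ILMN_1716264) and CYR61 (ILMN_2188264) of that list differed by 0.69 and -0.48, and neither was called. At 9 h ANKRD1 differed by -0.38.

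Of 61 tested genes for tRNA synthetases, RNA polymerase III, and tRNA processing and modification, 0 were called, beside 0.714% of all genes, a share at which a list of this size may hold no call. Of the 61, 19 differences were above 0, and the median was -0.0839. RARS (ILMN_1751378), the arginyl-tRNA synthetase, differed by -0.08. The lowest adjusted p values of the list belonged to the methyltransferase gene TRMT61A (ILMN_1675577), at -0.33, and to the pseudouridine synthase gene PUS1 (ILMN_1662658), at -0.25, with 0.409 and 0.454 in limma. None was called among 74 ribosomal protein genes (median -0.0106), 45 cell cycle genes (median 0.0151), 52 RNA exosome and decay genes (median -0.0439), 14 unfolded protein response genes, 18 heat shock genes, 22 histone genes, 20 S100 and annexin genes or 24 metallothionein and redox genes. EXOSC2 (ILMN_1697736), an exosome subunit that the study of these tRNAs followed as a target of tRNA-Glu, differed by -0.08. A p that misses the threshold does not show that these genes were equal in the lines.

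**Figure D2:**
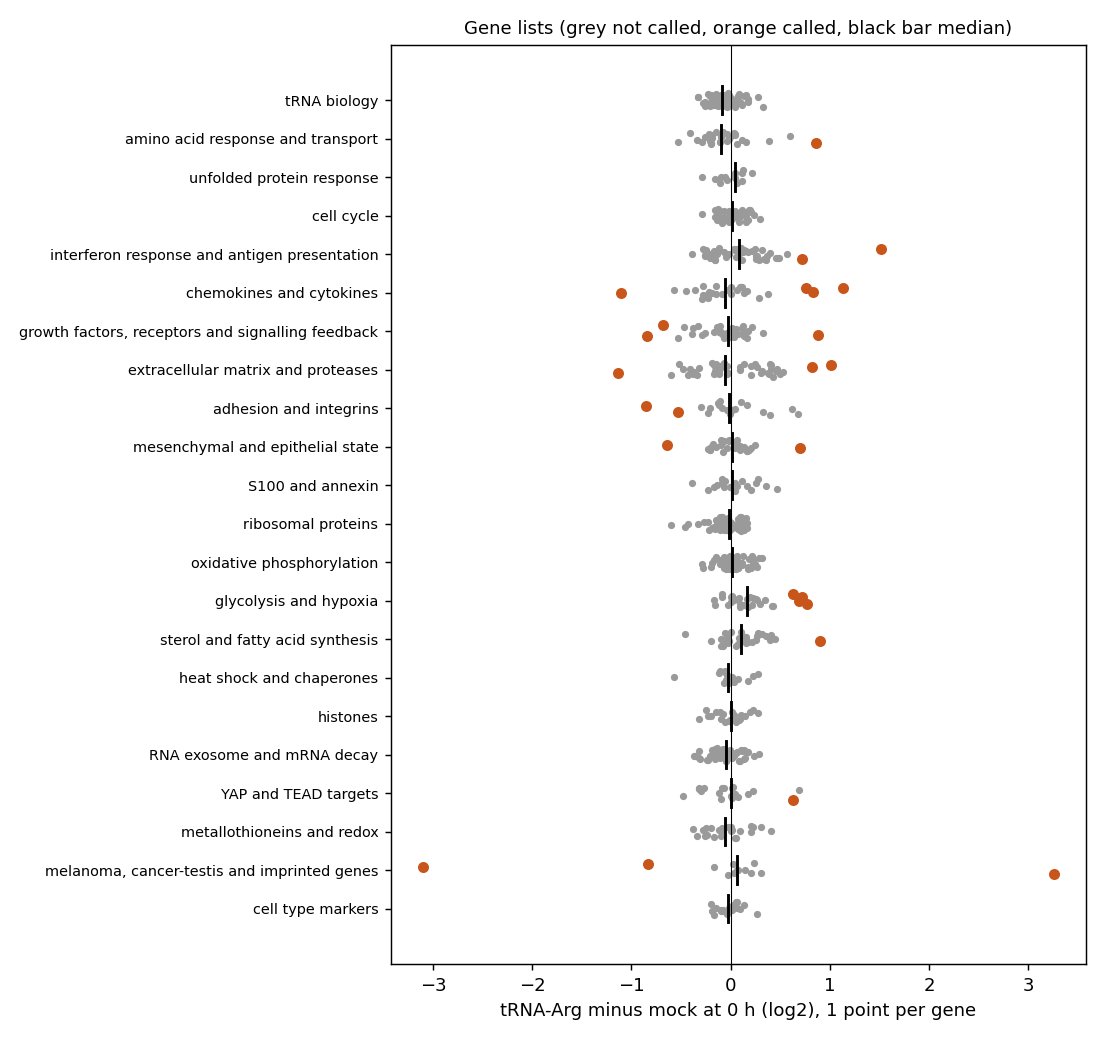
Log2 difference between tRNA-Arg and mock at 0 h (x axis) for each tested gene of the lists (rows), grey where not called and orange where called, with a black bar at the list's median. MAGEB2 and MAGEC2 lie at 3.26 and -3.10, and the 4 orange points of glycolysis and hypoxia lie between 0.63 and 0.78.

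Probes for the same gene were compared within the arrays. For 41 called genes with over 1 tested probe, 43 of 46 other probes lay on the same side of 0. The matching share over genes that were not called was not computed. The compared probes share the same arrays, and the 46 include SPANX probes, which may bind one another's transcripts. Of the 46, 10 were themselves called, beside 0.632% of all probes. The 3 on the other side were dim probes of COL6A2 (ILMN_1765017, -0.03), PTPRR (ILMN_1669172, 0.10) and TMEM98 (ILMN_1652456, 0.01). The endothelial lipase gene LIPG (ILMN_2189027 and ILMN_1689037) gave 1.01 and 0.83, the latter with 1 of 2 mock arrays above the floor.

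**Figure D3:**
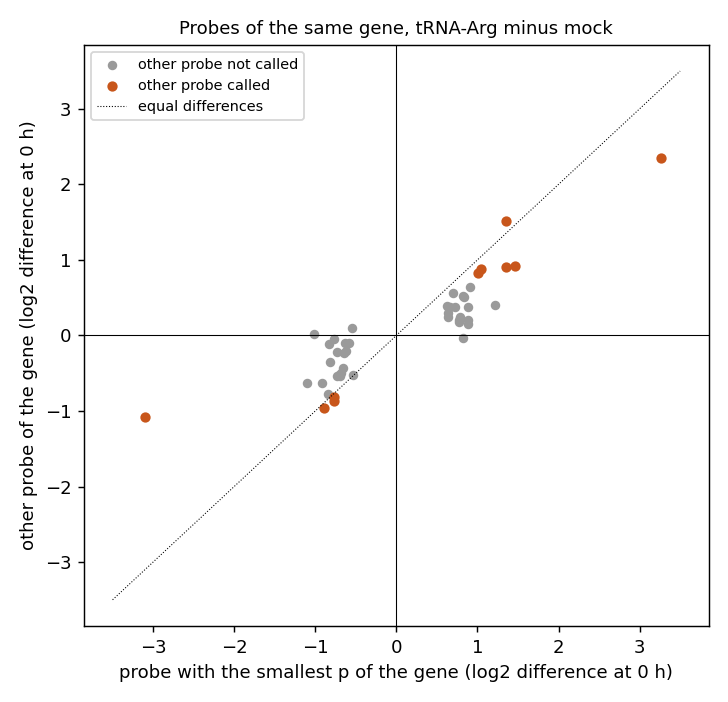
Log2 difference at 0 h of each other probe of a called gene (y axis) against the probe of that gene with the smallest p (x axis), 1 point per other probe, orange where the other probe was called too. Of 46 points 43 lie in the quadrants of equal sign, and most lie nearer 0 than the dotted line of equal differences. The probe on the x axis was picked for its smallest p, which by itself favours this.

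The 9 h arrays of the same lines were compared for direction. They are not independent of the 0 h calls, since all 12 arrays were normalized, filtered and fitted together. Of the 161 probes called at 0 h, 155 (96.3%) had the same direction after 9 h of α-amanitin, beside 15258 of all tested probes (59.9%). Of the 47 probes called from the 6 arrays at 0 h alone, 45 (95.7%) had the same direction at 9 h. At 9 h 146 probes (0.574%) were called, 89 higher (0.35%) and 57 lower, and 70 of the 161 were called at both times in the same direction. The differences at 9 h were mostly smaller, in 124 of 161, with a median of 0.596 in the 0 h direction. Smaller values on other arrays follow from picking probes by their 0 h differences, so this count does not show a shrinkage. Over the 25456 tested probes the differences at 0 and 9 h correlated at r = 0.369, given as a description, since the probes share the same 8 arrays.

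Of the 30 genes with the largest differences, all 30 had the same direction and 24 were called at 9 h. MAGEB2 (ILMN_1688335) read 6.20 and 6.15 in mock and 9.51 and 9.62 in tRNA-Arg at 9 h, a difference of 3.39, and MAGEC2 (ILMN_2088876) 10.04 and 10.29 against 6.66 and 6.77, a difference of -3.45. COX7B2 (ILMN_1674658) differed by 2.55 and AFF3 (ILMN_1775235) by -2.05 at 9 h. CST1 (ILMN_1753449) and MMP1 (ILMN_1726448) lay at -1.57 and -1.56 at 9 h, further from 0 than at 0 h. KRTAP2-1 (ILMN_1658448) lay at -0.40, RASL10A (ILMN_1747673) at 0.53 and IL8 (ILMN_2184373) at -0.81, and these 3 were not called at 9 h. FCGBP (ILMN_2302757) at 0.82, KISS1 (ILMN_1669404) at -0.50 and SPANXE (ILMN_1713125) at -0.64 were not called either, with adjusted p of 0.0522, 0.136 and 0.0575 in limma. The 6 probes that pointed the other way at 9 h were for HOXA13 (ILMN_1731349, 0.61 at 0 h and -0.17 at 9 h), NKX2-5 (ILMN_1800058), SLC27A6 (ILMN_1741592), LOC647585 (ILMN_1690356), LOC649722 (ILMN_1776535) and 1 unpaired probe, named after their values were seen.

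A direct test of whether the line difference changed between the times called 0 of 25456 probes (0.0%) in limma (smallest adjusted p = 0.685), with 1544 (6.07%) at an unadjusted p below 0.05. Over the 161 called probes the change from 0 to 9 h spanned -1.17 to 0.959, with a median size of 0.237 and a median half-width of the 95% interval of 0.385, so a change of that size could go uncalled on these arrays. Leaving out mock replicate 2 at 0 h gave 9 called probes.

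**Figure D4:**
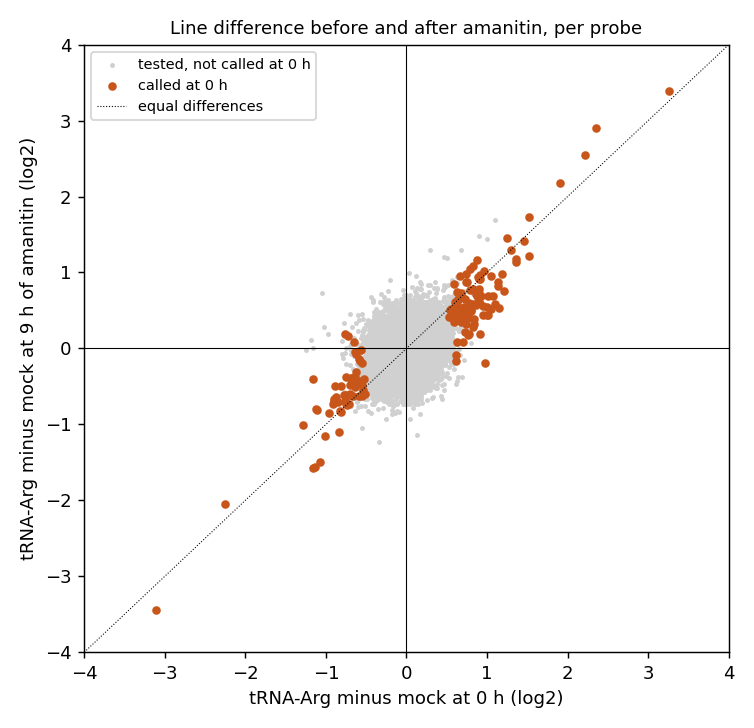
Log2 difference between tRNA-Arg and mock after 9 h of α-amanitin (y axis) against that at 0 h (x axis), 1 point per tested probe, orange where called at 0 h. Of the 161 orange points 155 lie in the quadrants of equal sign.

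The tRNA-Glu line at 0 h gave values mostly close to those of tRNA-Arg at the same genes. Of the 161 probes called in tRNA-Arg, all 161 had the same direction against mock in tRNA-Glu, and 97 were also called there. The matching shares of all tested probes were not computed. The 161 were picked for lying far from the same mock arrays, which by itself favours agreement of direction. In direction, the called differences were therefore not particular to tRNA-Arg. Their sizes were not all alike. Between the tRNA lines, 46 of the 161 differed at an unadjusted p below 0.05 in limma, beside 9.51% of all tested probes. Picking probes by their tRNA-Arg differences by itself favours such a gap. MAGEB2 (ILMN_1688335) read 9.69 and 9.42 in tRNA-Glu, MAGEC2 (ILMN_2088876) 6.65 and 6.85, COX7B2 (ILMN_1674658) 8.18 and 8.47, and AFF3 (ILMN_1775235) 6.01 and 6.04. These values lie on the tRNA-Arg side, away from the mock arrays. Both lines are set against the same 2 mock arrays, so a difference in those arrays enters both comparisons, and what belongs to the mock line and what to over-expression of a tRNA cannot be told apart. Against mock, LRIG1 (ILMN_2128795) differed by 1.52 in tRNA-Arg and 1.17 in tRNA-Glu, HLA-DPA1 (ILMN_1772218) by 1.52 and 1.59, and IGFBP3 (ILMN_1746085) by -0.68 and -0.29. Without tRNA-Glu replicate 1 the tRNA-Glu differences of these 3 were 1.39, 1.54 and -0.18.

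Set directly against each other, the tRNA-Arg and tRNA-Glu lines at 0 h differed at 0 of 25456 probes (0.0%) in limma (smallest adjusted p = 0.166), with 2420 (9.51%) at an unadjusted p below 0.05. Over the 161 probes called against mock, tRNA-Arg minus tRNA-Glu spanned -0.502 to 0.94, with a median size of 0.168 and a median half-width of the 95% interval of 0.272. For MAGEB2 (ILMN_1688335) it was -0.22 (SE 0.13) and for SCD (ILMN_1689329) 0.51 (SE 0.14). Without tRNA-Glu replicate 1 the span was -0.508 to 0.768, the median size 0.17, and the values of these genes -0.08 and 0.41. When tRNA-Glu was represented by replicate 1 alone, 1357 probes were called between the tRNA lines, and by replicate 2 alone 0. The count of tRNA-Arg against mock was 214 without tRNA-Glu replicate 1 and 206 without replicate 2, in place of 161.

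**Figure D5:**
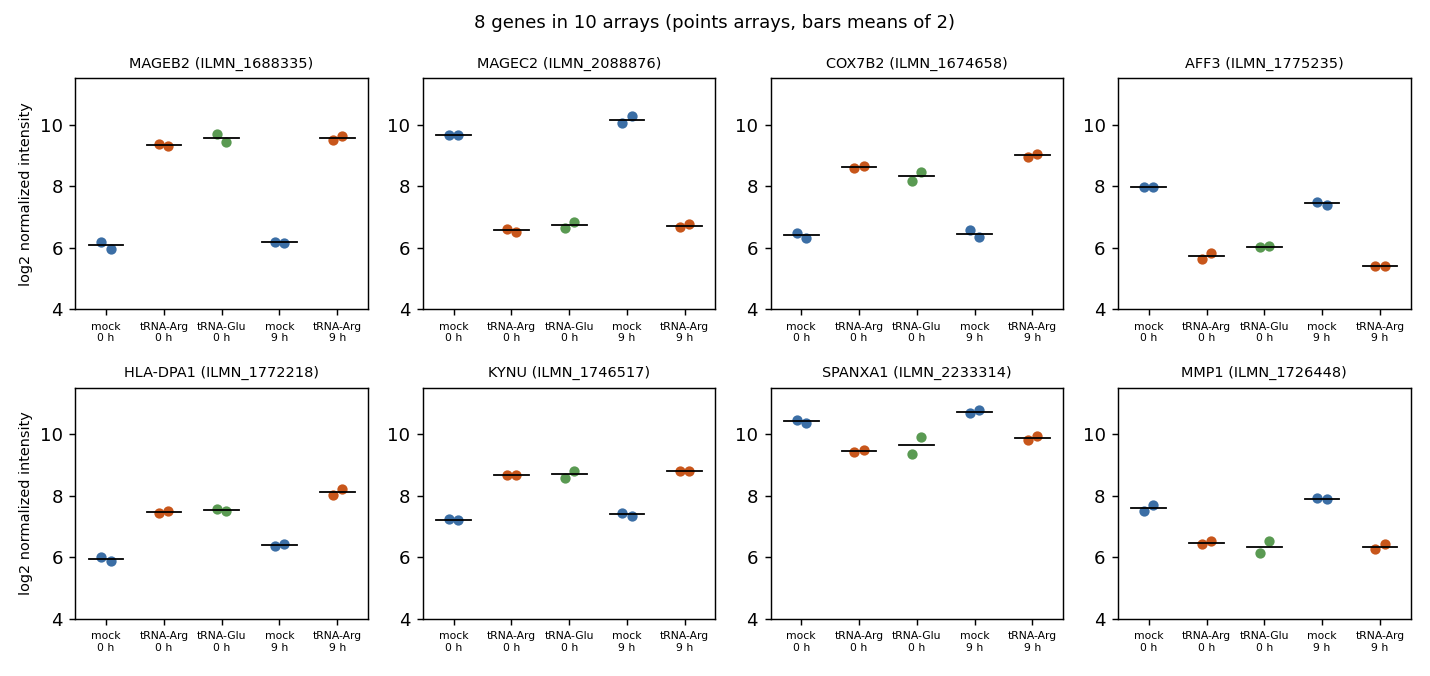
Log2 normalized intensity (y axis) of 8 genes on 10 arrays, by line and hours of α-amanitin (x axis), with 1 point per array and a bar at each mean of 2. At MAGEB2, MAGEC2, COX7B2 and AFF3 the 4 mock points lie on one side and the 6 tRNA points on the other.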

How the data were processed

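The deposited non-normalized table gives an intensity for each of 47231 probes on 12 arrays and is not normalized per the file headers. The series matrix holds the authors' processed intensity values, and the submitters' processing notes name lumi without a version. The non-normalized table also has 12 columns of detection p-values whose headings name no sample, and they were not used.

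Intensities were background corrected by limma's normexp (saddle-point method, offset 16), quantile normalized between arrays and put on the log2 scale, which shrinks differences of dim probes. The filter kept the 25456 probes whose raw intensity exceeded the median of the array on both arrays of at least 1 group. One limma fit of 6 group means over 12 arrays (6 residual and 7.06 prior degrees of freedom) gave the contrasts, with Benjamini-Hochberg adjustment at 0.05 within each. A fold against a group not well above background on both arrays is a bound, taken against the higher of the probe's signal and the lowest signal above the floor on each array.

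The files used here pair no probe with a gene. The deposited table of the authors holds a stability score per gene for each tRNA line, and probes were paired with its gene names by value, after the files had been seen. A probe's stability was computed from the authors' processed intensities, transformed by an inverse hyperbolic sine with 3 fitted parameters, as the 9 h minus 0 h change in a tRNA line minus that in mock. A gene was accepted where the mean over 1, 2 or 3 probes matched both of its scores within 1e-08. This paired 33651 of 34602 genes with 43213 probes (91.5%), and the sign-turned scores, run as a control, paired 0. The form of the function was found by search. The names rest on this pairing and are the authors' older symbols. The written design had foreseen naming only 4 probes where no table paired probes with genes, and its rule for named genes was applied through the pairing instead: the 15 genes with the largest differences each way, the called members of each list and the cell type markers. A gene in a list is represented by its brightest tested probe. Members, lists and rules were chosen with earlier results of these data known.

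The fits used limma 3.58.1 in R 4.3.3, and tables and plots used pandas 2.3.3, numpy 2.4.6, scipy 1.17.1 and matplotlib 3.10.9 in Python 3.11.15. The probe fit was also run on simulated data as a check of the code, and no result here rests on that run. Alternatives changed the background correction, offset, scaling, filter, arrays in the fit, replicate block and array weights, used the authors' processed values, or left out 1 array at a time.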

Additional observations from a re-analysis of the deposited data

How the results depend on the processing

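At 0 h, 161 probes were called between tRNA-Arg and mock. The count was 287 with an offset of 50, 260 with array weights, 71 with no filter on dim probes and 47 with only the 6 arrays at 0 h, and leaving out 1 array of the 6 at 0 h gave 26 to 214. At 9 h, 146 probes were called, against 276 without background correction, 307 with an offset of 50, 70 with median scaling, 52 with no filter, 230 for probes above the floor on every array, 255 with the floor at the 75th percentile, 516 with array weights, 220 from the authors' processed values and 37 to 43 with 1 array left out. Of probes called at 0 h, 155 kept their direction at 9 h, against 283 with an offset of 50, 67 with no filter, 233 with the 75th percentile, 246 with array weights, 45 of the 47 called from only the 6 arrays at 0 h (an alternative chosen after seeing the data) and 25 to 126 with 1 array left out, where the number called moved too. The direct contrast of tRNA-Arg and tRNA-Glu called 0 probes, 1 without background correction, 1 with an offset of 50 and 0 to 1357 with 1 array left out. The change from 0 to 9 h called 0, and 0 to 9 with 1 array left out. The number of hypoxia and glycolysis genes called fell from 4 to between 0 and 1 with 1 array left out, an alternative chosen after seeing the data, as was leaving out tRNA-Glu arrays from the comparison with mock. No filter tests more probes, and fewer arrays leave fewer degrees of freedom, while other causes were not tested.

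Replicate numbers were not used to pair the arrays in the main fit. Residuals of same-numbered arrays correlated at -0.256 to 0.0859 over 15 pairs of groups. Such correlations cannot show whether same-numbered arrays were grown or processed together. With the replicate number as a block, 133 probes were called at 0 h and 111 at 9 h. Of the 30 genes with the largest differences, 19 kept direction and call under every alternative that tested them, and FCGBP, KRTAP2-1, CST1, MMP1, IL8, SPANXA1, C4BPB, KISS1, SPANXE, CDH11 and IGFBP1 lost the call under at least 1. No named gene reversed under the alternatives run. Probes near the floor limit what can be called: 18 called probes had both mock arrays under it and 5 both tRNA-Arg arrays.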
